A study of Mus musculus with 6 samples.

Results

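The 4 genes described here, Fli1, Ets1, Etv6 and Sfpi1 (now named Spi1, and encoding PU.1), code for ETS transcription factors that are active in blood cells. Methylated DNA at each gene was read as the peaks of an MBD2 pulldown that overlapped a window of the mm9 mouse genome by at least 1 bp. The windows spanned chromosome 9 at 32.22 to 32.36 Mb for Fli1, chromosome 9 at 32.49 to 32.58 Mb for Ets1, chromosome 6 at 133.97 to 134.23 Mb for Etv6 and chromosome 2 at 90.91 to 90.97 Mb for Sfpi1 with its upstream enhancer. The windows held 56 of the 164274 deposited peaks, of which 29 were among the 85797 of HSC, 19 among the 50638 of CMP and 8 among the 27839 of ERY. Overlapping or touching peaks of the 3 lists merged into 30 regions in the windows, out of 87514 regions in all.

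The study followed DNA methylation as hematopoietic stem cells differentiate. Per the labels, all cells came from female C57BL/6 mice, with no treatment or engineered allele given. HSC were adult bone marrow cells sorted as negative for lineage markers and positive for Sca-1 and c-kit. CMP (common myeloid progenitors) were sorted from the same marrow as lineage-negative, Sca-1-negative and c-kit-positive cells, a gate that can hold other c-kit-positive progenitors. ERY are erythroblasts, the nucleated precursors of red cells, and the labels do not describe how these cells were isolated. Each cell type had 1 MBD2-enriched library, so differences between cell types come without a replicate check and were not tested. MBD2 holds DNA that carries methylated CpG sites, and each list gives the start and end of a peak with no height, so a peak was either present or absent and its width was its single measured property. The depth of the libraries is unknown, and a place without a peak is not shown to be unmethylated. Peak lists hold no expression values, so the cell type labels could not be checked against markers.

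ETS factors share a DNA-binding domain that recognises a GGAA core, and some of their sites contain a CpG whose methylation can weaken binding. PU.1, the product of Sfpi1, drives myeloid and B cell development and opposes the erythroid regulator GATA1, and its level depends on an enhancer upstream of the gene. Fli1 promotes megakaryocyte development, and its forced activity blocks erythroid maturation in mouse erythroleukemia. Ets1 acts mainly in lymphoid cells, and Etv6 (also called Tel) is a repressor that adult stem cells need in the bone marrow.

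No mm9 genome was at hand, so the sequences under the peaks are not shown and no peak was placed in an exon, intron or promoter. Of the 4 genes, Etv6 alone was matched in the RefSeq promoter table, which uses GRCm38.p6. Its 250 bases before the gene start are shown for that reason. The upstream end of the Etv6 window was the longest stretch in the 4 windows without a peak in any list. The 250 bases lie at chr6:134035450-134035699 on the plus strand of GRCm38.p6. These positions cannot be set against the mm9 positions of the peaks, so the bases are not shown to fall in that stretch. CpG dinucleotides, the units that MBD2 can bind when methylated, are in capitals.
Etv6 upstream: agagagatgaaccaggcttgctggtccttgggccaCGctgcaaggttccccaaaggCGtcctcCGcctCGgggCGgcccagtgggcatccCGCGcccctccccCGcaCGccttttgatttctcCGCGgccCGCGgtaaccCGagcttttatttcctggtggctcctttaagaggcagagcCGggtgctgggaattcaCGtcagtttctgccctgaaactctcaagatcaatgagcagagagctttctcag
The stretch held 16 CG dinucleotides and 60.4% G or C. Of the 32851 upstream stretches of the same length in the table, 25.4% held at least as many CG. The ETS core GGAA was found 3 times on either strand, and 54.7% of all stretches held at least as many. At least 1 GGAA was found in 93.4% of all stretches. The longer motif CCGGAA, which contains GGAA and a CG, was not among these letters on either strand, and 12.0% of all stretches held it.

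The number of methylated peaks at these genes was lower at each later stage. Counts were 29, 19 and 8 in HSC, CMP and ERY, or 52.7, 34.5 and 14.5 peaks per Mb. Covered length followed the same order, at 24033, 16703 and 6832 bp. CMP thus covered 69.5% as many bases as HSC in the windows and 62.6% in the rest of the lists. ERY covered 28.4% as many bases as HSC in the windows and 33.0% in the rest. Each list was then cut to its widest peaks at the length of the ERY list. After this cut the windows held 13, 13 and 8 peaks in HSC, CMP and ERY. The cut removed HSC peaks narrower than 873 bp and CMP peaks narrower than 790 bp, and left the ERY list whole. It makes the HSC and CMP lists near equal in length by construction. Their equal counts in the windows thus cannot show whether HSC and CMP differed there.

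The 4 windows together carried more peaks per Mb than the rest of the lists at each stage. Outside the windows HSC had 32.5 peaks per Mb, CMP 19.2 and ERY 10.5, where chromosome lengths were taken up to the last peak. The windows were 1.62 times as dense in HSC (95% exact Poisson interval 35.3 to 75.7 peaks per Mb), 1.80 times in CMP (20.8 to 53.9) and 1.38 times in ERY (6.28 to 28.7). This interval of the 4 windows together lay above the rest in HSC and CMP and included it in ERY. The interval of each single window included the rest in HSC, CMP and ERY. These intervals cover counting error only, as if peaks were independent of one another. In HSC, Sfpi1 had the highest density with 83.3 peaks per Mb, then Fli1 with 64.3, Ets1 with 55.6 and Etv6 with 38.5. The Poisson intervals of these 4 windows, which hold 5 to 10 peaks each, overlap one another, so their order is not resolved.

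**Figure D1:**
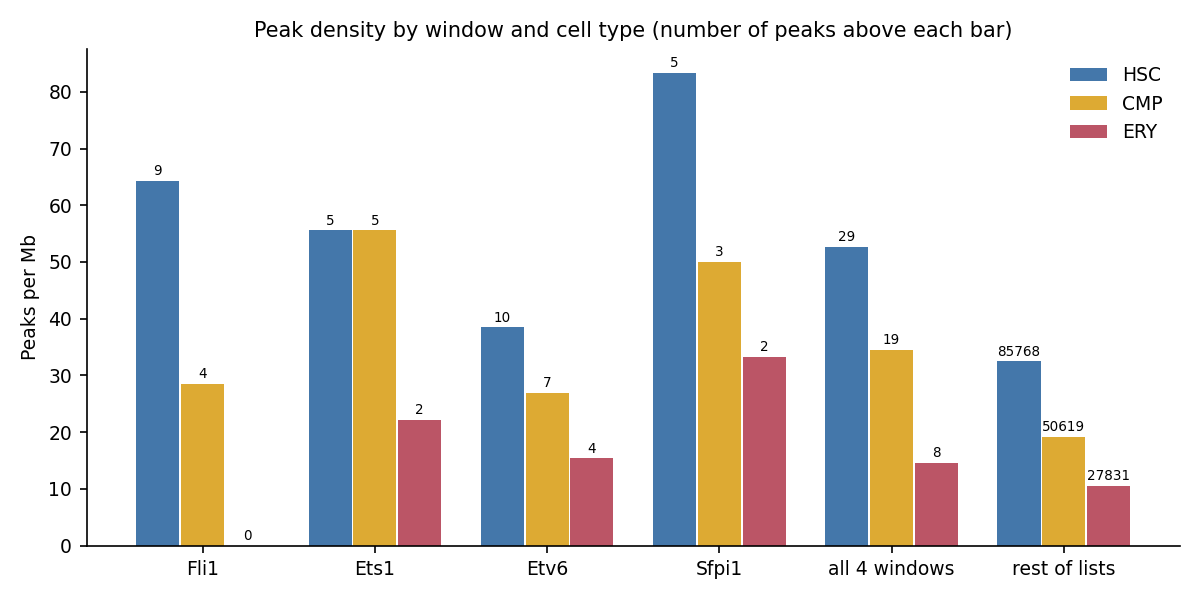
Peaks per Mb (y axis) in each gene window, in the 4 windows together and in the rest of the lists, for HSC, CMP and ERY (bars), with the number of peaks above each bar. Fli1 had 9, 4 and 0 peaks, and Ets1 kept the same number, 5, in HSC and CMP.

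Of the 29 HSC peaks in the windows, 18 had a CMP peak, or 62.1% (95% exact binomial interval 42.3 to 79.3%), against 57.1% of all HSC peaks. Of the 19 CMP peaks, 8 had an ERY peak, or 42.1% (20.3 to 66.5%), against 50.7% of all CMP peaks. Over both steps 8 of 29 HSC peaks had an ERY peak, or 27.6% (12.7 to 47.2%), against 30.9% of all HSC peaks. With the lists cut to equal length this last share was 46.2% (6 of 13). The share of all HSC peaks under that cut is not given here, so 46.2% is not set against 30.9%. Each interval includes the value of the whole list, so the kept shares of the 4 genes together were not distinguishable from it. No HSC peak that lacked a CMP peak had an ERY peak (0 of 11, exact interval 0 to 28.5%), against 3.06% over the whole lists.

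The 4 genes together also resembled the whole lists in the mix of cell types that shared a region. A peak in HSC alone was found in 11 of the 30 regions, against 40.7% of all regions. HSC and CMP without ERY shared 10 regions, against 26.4% of all. All 3 lists had a peak in 8 regions, against 28.5%, and CMP alone had a peak in 1, against 1.72%. No region had a peak in HSC and ERY without CMP, in CMP and ERY without HSC, or in ERY alone, classes that made up 1.2%, 0.323% and 1.16% of all regions. In sum, 21 of 30 regions had an HSC peak and no ERY peak, against 67.1% of all, and 1 of 30 had a CMP or ERY peak without one in HSC, against 3.2%. With each list cut to its widest peaks at the length of the ERY list, these counts were 7 and 6 of 19 regions. The cut itself changed these classes, because it removed HSC peaks narrower than 873 bp and made the lists near equal in length by construction. With the full lists 1 region in the windows lacked an HSC peak, so the others of the 6 had one that the cut removed. The counts of 7 and 6 thus do not show that regions without an HSC peak are common here. The counts of all regions under that cut are not given here. Of the CMP peaks in the windows 18 of 19 overlapped an HSC peak (96.5% of all CMP peaks did), and all 8 ERY peaks overlapped both an HSC peak (95.3% of all) and a CMP peak (92.5% of all).

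**Figure D2:**
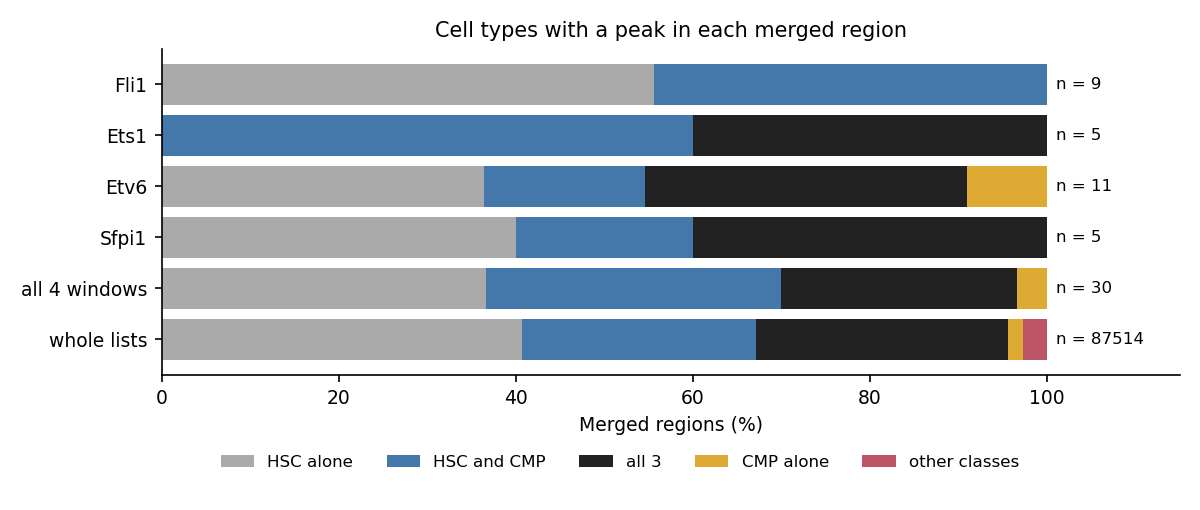
Share of merged regions (x axis, percent) by the cell types with a peak in them, for each gene window, the 4 windows together and the whole lists, with the number of regions on the right. Fli1 had no region with an ERY peak, and Ets1 had none with a peak in HSC alone.

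Fli1 had fewer peaks in CMP than in HSC and none in ERY. Its 140 kb window held 9, 4 and 0 peaks in HSC, CMP and ERY. With the lists cut to equal length as above it held 2, 2 and 0 peaks, where the lists were near equal by construction. Under that cut 0 of those 2 HSC peaks had a CMP peak, which does not show a difference in position. The 2 CMP peaks left, of 861 and 869 bp, lay over HSC peaks of 517 and 759 bp. Those HSC peaks were removed by the 873 bp limit of the HSC list, while the CMP limit was 790 bp. In the full lists all 4 CMP peaks lay over an HSC peak, and the other 5 HSC positions had no peak at either later stage. The 4 of 9 HSC peaks with a CMP peak, or 44.4%, give an exact binomial interval of 13.7 to 78.8%, which includes the 57.1% of the whole list. The 0 of 4 CMP peaks with an ERY peak give 0 to 60.2%, which includes the 50.7% of all CMP peaks. The 0 of 9 HSC peaks with an ERY peak give 0 to 33.6%, which includes the 30.9% of all HSC peaks. The Fli1 HSC peaks were 455 to 950 bp wide, and among all HSC peaks of that width range 26.3% had an ERY peak.

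The widest Fli1 peak of HSC, at chr9:32291961-32292910 (950 bp), had no peak in CMP or ERY. The widest Fli1 peak of CMP, at chr9:32352748-32353616, was 869 bp, against 759 bp in HSC. It lay nearest the high-coordinate edge of the window, the side of the gene's start, since Fli1 is read towards lower coordinates. The other 3 positions kept in CMP had 637 to 861 bp there and 505 to 698 bp in HSC. In CMP the longest stretch without a peak was 77.7 kb and in HSC it was 34.7 kb. The remaining 4 positions, found in HSC alone, were 455 to 907 bp wide.

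Ets1, the neighbour of Fli1 on chromosome 9, kept all its peaks in CMP and fewer in ERY. Its 90 kb window held 5, 5 and 2 peaks in HSC, CMP and ERY. Each of the 5 HSC peaks had a CMP peak (exact interval 47.8 to 100%), and 2 of the 5 had an ERY peak (5.27 to 85.3%). These intervals include the shares of all HSC peaks, 57.1% for CMP and 30.9% for ERY. CMP peaks covered 4312 bp of the window, against 3967 bp in HSC. Fli1 differed in the same pair of cell types, with 3037 bp in CMP and 5886 bp in HSC, although the exact intervals of their kept shares, 13.7 to 78.8% at Fli1 and 47.8 to 100% at Ets1, overlap.

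The 2 Ets1 positions with a peak in all 3 lists lay closest to the high-coordinate edge of the window. The first, at chr9:32561623-32562395, had a width of 720 bp (HSC), 665 bp (CMP) and 433 bp (ERY). Of the 27839 ERY peaks, 26994 were wider than this 433 bp peak. The second, at chr9:32579190-32580065, had a width of 672 bp (HSC), 823 bp (CMP) and 829 bp (ERY), and was the widest Ets1 peak of ERY. It crosses the window edge by 16 to 65 bp, and its midpoint lies inside. The widest Ets1 peak of HSC, at chr9:32548455-32549428 (974 bp), and that of CMP, at chr9:32539068-32540300 (1233 bp), were both absent from ERY. At Ets1 the ERY peaks were thus not found at the positions of the widest earlier peaks.

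**Figure D3:**
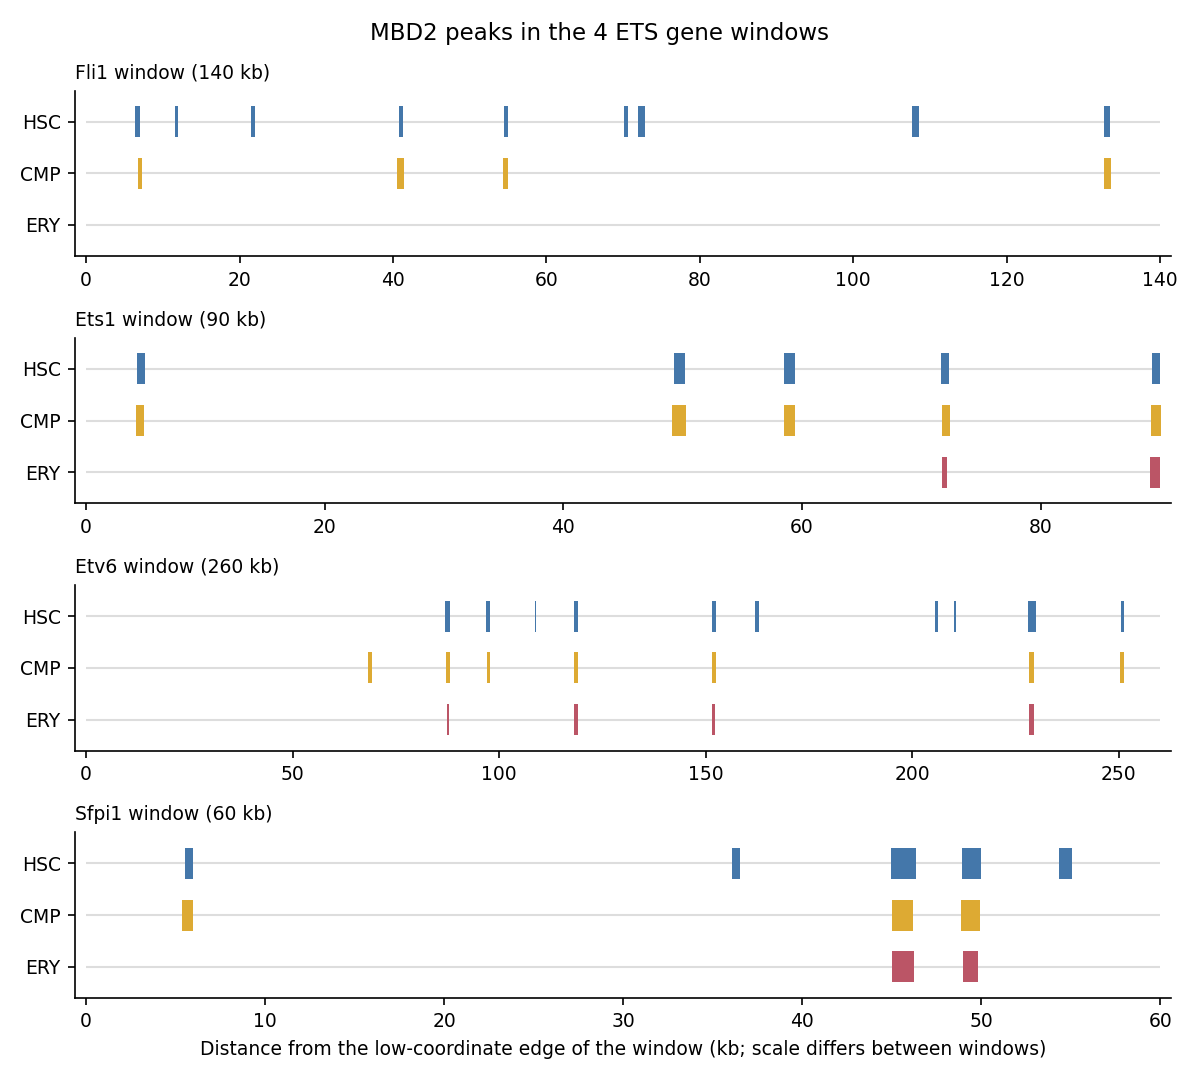
Peaks of HSC, CMP and ERY (rows, boxes drawn to scale) along each gene window, by distance in kb from the low-coordinate edge. All 8 ERY peaks lie under HSC and CMP peaks, the Fli1 window has none, and the first 68.3 kb of the Etv6 window have no peak in any list.

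Etv6 had the longest window, 260 kb, and the largest number of peaks that stayed to the erythroblast stage. It held 10, 7 and 4 peaks in HSC, CMP and ERY. Of the 10 HSC peaks 6 had a CMP peak (60%, exact interval 26.2 to 87.8%) and 4 had an ERY peak (40%, 12.2 to 73.8%). These intervals include the shares of all HSC peaks, 57.1% for CMP and 30.9% for ERY. The share with an ERY peak was also 40% at Ets1 (2 of 5) and at Sfpi1 (2 of 5). The first 68.3 kb of the window, the side from which Etv6 is read, held no peak in any list. The stretch without a peak reached 87.3 kb in ERY and 86.9 kb in HSC.

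The CMP peak at chr6:134038280-134039171 (892 bp), at the end of that stretch, was the single peak in the 4 windows that had no HSC peak. It had no ERY peak either. The nearest HSC peak was 17.8 kb away and the nearest ERY peak 18.1 kb.

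The widest peak of the 4 windows was the HSC peak of Etv6 at chr6:134197919-134200067, with 2149 bp. A total of 666 HSC peaks were wider, and 99.2% were narrower. At the same place the peak was 1044 bp in CMP and 1137 bp in ERY. The CMP peak started 437 bp and ended 668 bp inside the HSC peak, and the ERY peak 319 and 693 bp inside it, so both later peaks sat within the earlier one.

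The other 3 Etv6 positions with a peak in all 3 lists were narrower in each later list. At chr6:134056938-134058162 the peak had a width of 1072 bp (HSC), 1061 bp (CMP) and 624 bp (ERY). At chr6:134088052-134089155 it had a width of 1104 bp (HSC), 1051 bp (CMP) and 973 bp (ERY). At chr6:134121411-134122445 it had a width of 1035 bp (HSC), 962 bp (CMP) and 739 bp (ERY). The widest Etv6 peak of CMP was the first of these, and that of ERY was the 1137 bp peak inside the widest HSC peak. The 2 positions kept in CMP and absent from ERY had 576 and 916 bp in CMP, and 1031 and 838 bp in HSC, and the 4 positions found in HSC alone had 464 to 936 bp.

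Sfpi1 had its lasting peaks side by side near the high-coordinate end of its window. The 60 kb window held 5, 3 and 2 peaks in HSC, CMP and ERY. The first peak present in all 3 lists, at chr2:90954973-90956349, had a width of 1377 bp (HSC), 1179 bp (CMP) and 1217 bp (ERY), the widest Sfpi1 peak of each list. The second, at chr2:90958878-90960019, had a width of 1063 bp (HSC), 1069 bp (CMP) and 880 bp (ERY). The 2 were 2.61 kb apart in HSC. The next protein-coding gene on that side in the GRCm38 gene order is Mybpc3, a cardiac myosin-binding protein gene, and these peaks were not assigned to Sfpi1 or Mybpc3.

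The remaining Sfpi1 peaks were absent from ERY. The peak nearest the low-coordinate edge, at chr2:90915353-90915982, was 604 bp in CMP and 479 bp in HSC. It was the single Sfpi1 position shared by HSC and CMP alone. The 2 positions found in HSC alone had 468 and 722 bp. A stretch of 30.1 kb, or 50.1% of the window, held no peak in any list, and it began after the peak nearest the low-coordinate edge. The position of the upstream enhancer within the window was not located.

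Over the 4 windows pooled, HSC peaks with an ERY peak were wider than those without, while at Ets1 the order was the reverse. HSC peaks of the windows that had an ERY peak were 672 to 2149 bp wide (median 1067.5 bp, n = 8), and those without were 455 to 1031 bp (median 698 bp, n = 21). Over the whole HSC list the median was 864 bp for peaks with an ERY peak and 706 bp for those without. Of the 7 HSC peaks of at least 1000 bp in the windows, 7 had a CMP peak and 6 had an ERY peak, against 79.1% and 53.0% of all HSC peaks of that width. Of the 22 narrower ones, 11 had a CMP peak and 2 an ERY peak, against 51.6% and 25.4%. The limit of 1000 bp was chosen after the widths were seen, and these shares of few peaks are given without an interval. All 7 wider peaks lay at Etv6 or Sfpi1, and the narrower ones include all 9 HSC peaks of Fli1, none with an ERY peak. Width thus cannot be told apart from gene here. The 2 narrower peaks with an ERY peak were both those of Ets1, where HSC peaks with an ERY peak had a median of 696 bp (n = 2) and those without had 915 bp (n = 3).

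**Figure D4:**
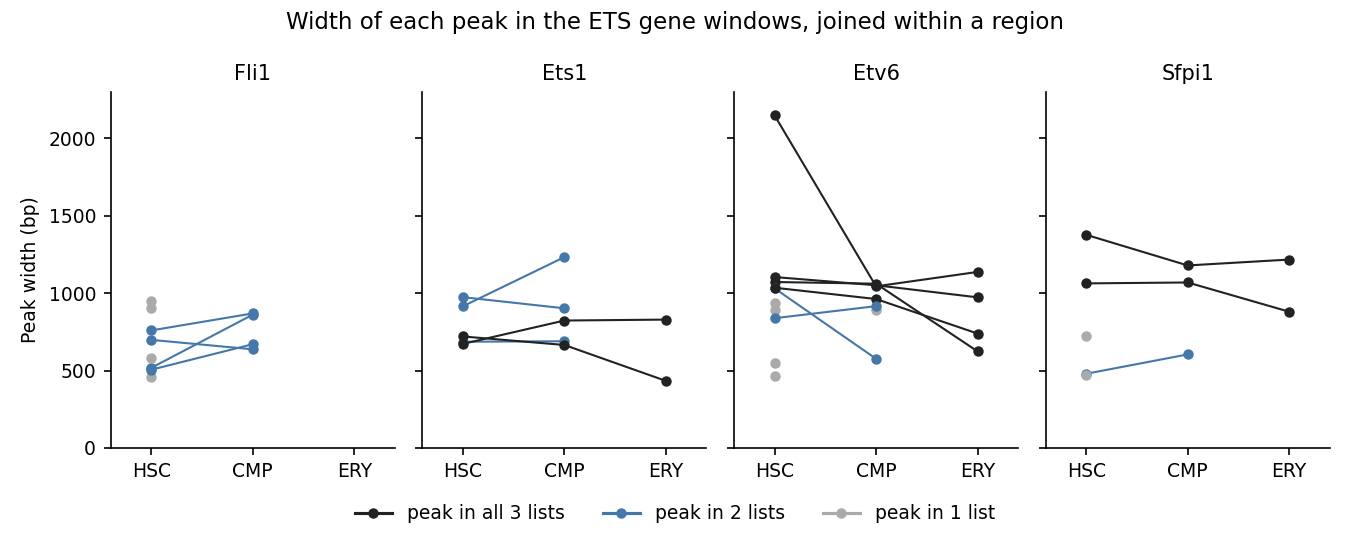
Width in bp (y axis) of each peak in HSC, CMP and ERY, with peaks of 1 region joined by a line, for each gene. The Etv6 peak of 2149 bp in HSC was 1044 bp in CMP, and the 8 regions with a peak in all 3 lists ended between 433 and 1217 bp in ERY.

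Peaks of 2 stages in the same region overlap by the way regions were made, while their edges could differ. Over the 18 regions shared by CMP and HSC, starts differed by a median of 105 bp (highest 437 bp) and ends by 106.5 bp (highest 668 bp). Over the 8 regions shared by ERY and HSC, starts differed by a median of 103.5 bp (highest 344 bp) and ends by 135.5 bp (highest 693 bp). The CMP peak was narrower than the HSC peak in 9 of these 18 regions (median ratio 1.00, lowest 0.49, highest 1.67). Over the whole lists CMP was narrower in 51.3% of shared regions. The ERY peak was narrower than the HSC peak in 7 of 8 regions, with a median ratio of 0.77, against 64.6% of regions and a median ratio of 0.90 over the whole lists. The ERY peak was narrower than the CMP peak in 5 of 8 regions, or 62.5%, against 70.9% over the whole lists. The exception to the difference between ERY and HSC was the Ets1 position at the window edge, with 829 bp in ERY and 672 bp in HSC.

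**Figure D5:**
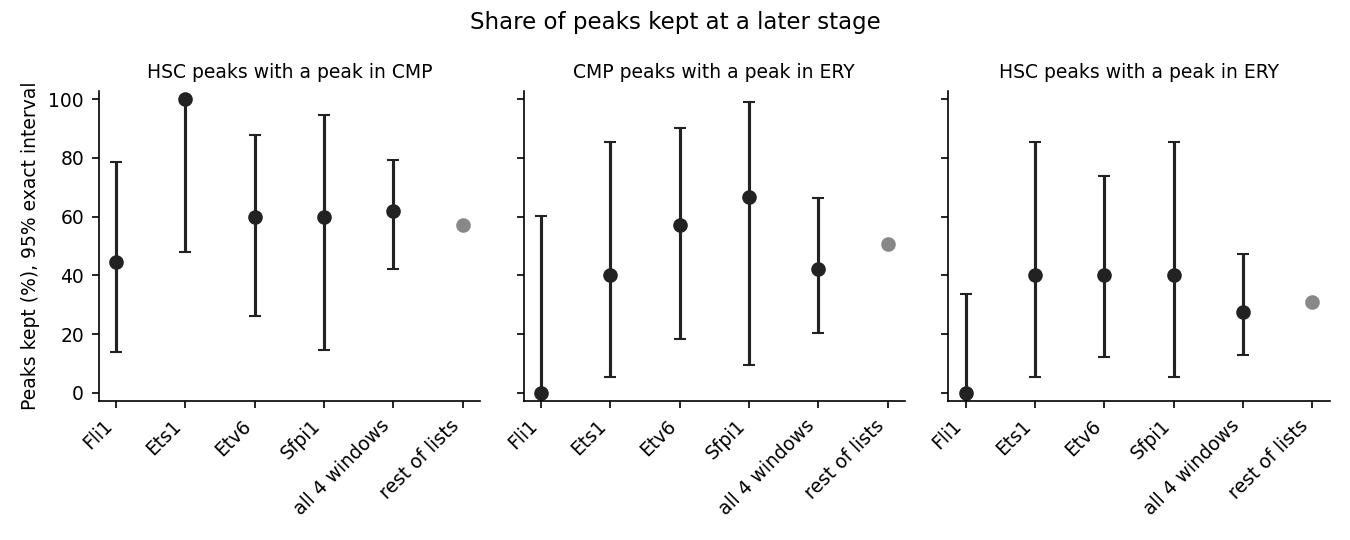
Percent of HSC or CMP peaks with a peak at the later stage (y axis) for each gene window, the 4 windows together and the rest of the lists, with 95% exact binomial intervals that cover counting error only. The 4 windows together lie at 62.1%, 42.1% and 27.6%, and each interval of the 4 windows together includes the rest of the lists.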

How the data were processed

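The authors deposited 1 peak list for the MBD2-enriched library of each of 3 cell types, per the file headers exported by a genome browser's table query. Each of the deposited lists has 3 columns (chromosome, start, end) and no score. Libraries gave 36 bp single-end reads, per the labels' protocols, and per the submitters' processing notes positions are on mm9. How reads were aligned and how peaks were called is not stated in the labels or headers. The 3 supernatant libraries are not analysed here.

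Peaks were counted in a window when they overlapped it by at least 1 bp, and 2 peaks shared a place at an overlap of at least 1 bp. Counts of overlapping peaks equalled those of bedtools 2.31.1, and the overlap functions were tested on simulated data. Intervals are 95% exact (Clopper-Pearson or Poisson). With 1 library per cell type no test was run. Positions are 1-based on mm9. Gene order and the promoter came from RefSeq GRCm38.p6. The windows, and the rule for peaks described singly (present in all 3 lists, new in a later list, widest in a list, or alone in its class in a window), were chosen with earlier results of these data known. Protein domains and other ETS genes are not analysed here. Computation used Python 3.11.15, scipy 1.17.1 and matplotlib 3.10.9.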

Additional observations from a re-analysis of the deposited data

How the results depend on the processing

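No paired analysis was possible because each cell type has 1 library. The kept shares stayed inside their intervals, which are wide, under each alternative run. The largest move was in HSC peaks kept in ERY, from 27.6% to 46.2% with lists of equal length. Placing peaks by midpoint, widening the windows by 10 kb, merging within 500 bp, and asking for 50% of the earlier peak or a later peak within 500 bp left each value they apply to within 1.5 times or inside its interval. With the wider 50% of each list, HSC had 15 peaks and 16001 bp in the windows and ERY 5 peaks, 11 regions had an HSC and no ERY peak, and 3 had a CMP or ERY and no HSC peak. With each list cut to its widest peaks at the length of the ERY list, HSC had 13 peaks and 14404 bp, CMP 13 and ERY 8 peaks, and those regions numbered 7 and 6 of 19. Both cuts remove peaks by construction, so a region counted as without an HSC peak can hold one in the full list. At that equal length HSC and CMP had the same number in the windows, while the whole lists are near equal in number by construction. Fli1 had 2, 2 and 0 peaks in HSC, CMP and ERY, and 0 of its 2 HSC peaks had a CMP peak. The 2 CMP peaks left there lay over HSC peaks that the cut had removed. Without the Etv6 window, counts were 19, 12 and 4 peaks and 13962, 10201 and 3359 bp in HSC, CMP and ERY, and no region had a CMP or ERY peak without one in HSC (0). Without the Fli1 window, 12 regions had an HSC and no ERY peak. The share of HSC peaks kept in ERY was then 40% (8 of 20, exact interval 19.1 to 63.9%). That interval includes the 30.9% of the whole list. The window left out was the one with no ERY peak, so a rise in this share was fixed by that choice. Leaving out Ets1, Etv6 or Sfpi1 instead gave 25%, 21.1% and 25%. Read depth is unknown, and its part in the counts was not tested.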

Other observations

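The 130 kb between the Fli1 and Ets1 windows held 3 HSC peaks and no CMP or ERY peak, while 40.7% of all regions had a peak in HSC alone. The 3 peaks lay at chr9:32403890-32404555 (666 bp), chr9:32404772-32405871 (1100 bp) and chr9:32436032-32436684 (653 bp). The 10 kb beyond the high-coordinate edge of the Sfpi1 window held 4, 2 and 2 peaks in HSC, CMP and ERY. The 10 kb beyond that edge of the Etv6 window held 1 HSC peak, of 417 bp, and none of the later stages. These counts are of peaks that lie wholly in the stretch. No list had such a peak in the 10 kb before the Sfpi1 window, before the Etv6 window, or on either side of the Fli1 and Ets1 windows, while the last Ets1 peak of each list crosses the high-coordinate edge by 16 to 65 bp.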
